A study of Mus musculus with 18 samples.

Results

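The genes described here are the amino acid transporters of 7 solute carrier families, chosen by name: every measured gene whose symbol belongs to Slc1, Slc3, Slc6, Slc7, Slc36, Slc38 or Slc43. They are 60 of the 19937 genes measured, and where a gene had several probe sets the brightest one on average was used. Some members carry other cargo, such as Slc6a8 (creatine), Slc43a3 (purine nucleobases, by its human protein) and Slc6a2, Slc6a3 and Slc6a4 (monoamines). They were kept because the choice went by name.

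The study set partially and fully reprogrammed induced pluripotent stem (iPS) cells against the fibroblasts they came from and against embryonic stem (ES) cells, on 18 mouse expression arrays in 6 groups of 3. The first group was EOS3F-24 after 2i conversion, in ES medium with LIF, a MEK inhibitor at 2 μM and a GSK inhibitor at 12 μM. The second was EOS3F-24 itself, labelled as partially reprogrammed. EOS3F-28 and EOS3F-29, labelled as fully reprogrammed, were the third and the fourth, and the J1 ES cell line was the fifth. The sixth was CD1 mouse embryonic fibroblasts (MEFs), low-passage primary cells in serum medium with added L-glutamine. All 3 iPS lines were made from CD1 MEFs with pMX retroviruses for Oct4, Klf4 and Sox2, and all were kept in puromycin at 1 μg/mL. Each iPS line is described as a clone, so the partial state rests on 1 line and the full state on 2. Arrested feeders and LIF supported the iPS and J1 cultures, whereas the MEFs were grown in their own medium. In every comparison with MEFs, culture conditions and cell state therefore cannot be told apart. Only the converted cells had the inhibitors, so against partial or full iPS cells, conversion and the inhibitors' presence cannot be told apart. No puromycin is given for J1 cells, so in full iPS against J1 cells puromycin and cell line cannot be told apart.

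All values are log2 array values, each difference is one of log2 means given ± its SE, and ± after a level is the SD of 3 arrays. A gene was called where limma gave an adjusted p under 0.05 over all 19937 genes. Array medians lay between 3.92 and 4.11. Nothing in the labels says that the 3 arrays of a group came from separate cultures, so the p-values measure the spread between arrays, which may be technical. An array cannot tell fewer cells of a type from less RNA per cell. The mean of 10 pluripotency markers was 5.28 to 5.84 over the partial arrays, 7.90 to 8.90 over the converted and full iPS arrays, 8.71 to 8.99 over J1 arrays and 3.56 to 3.63 over MEF arrays. In the partial line 6 of the 10 (Nanog, Sox2, Zfp42, Esrrb, Utf1 and Sall4) averaged under 5. The mean of 10 fibroblast markers was 6.21 to 8.12 over the arrays of the 5 feeder-grown groups and 9.08 to 9.27 in MEFs, and none of the 10 averaged under 5 in any group. The part of feeder RNA in the transporter values of those groups was not tested.

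Amino acid transporters move amino acids across the plasma membrane and the membranes of lysosomes and vesicles. Some import against a gradient by coupling to sodium or protons (Slc1, Slc6, Slc36 and Slc38). Others swap 1 amino acid for another (Slc1a4, Slc1a5 and many Slc7 proteins), and Slc43 proteins other than Slc43a3 let large neutral amino acids equilibrate. The Slc7 light chains reach the membrane joined to a heavy chain, Slc3a2 or Slc3a1. Imported leucine, arginine and glutamine feed protein synthesis and the growth kinase complex mTORC1, and cells short of amino acids translate the transcription factor Atf4, which raises many transporter genes. Mouse ES cells are known for their need for threonine and for glycine cleavage, which supply one-carbon units.

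For 43 of the 60 members RefSeq (GRCm38.p6) gives a promoter window of 300 bases, from 250 before the transcription start to 50 after it. The windows were searched on both strands for 3 motifs. These were the core of the element bound by Atf4 with Cebp proteins (TGATGNAA), the octamer bound by Oct4 and related factors (ATGCAAAT), and the E-box bound by Myc, Tfeb and related factors (CACGTG, which reads alike on both strands). The Atf4 core occurred in 4 members (9.3%: Slc1a4, Slc6a21, Slc7a11 and Slc7a7), against 4.51% of all 27025 genes with a window. The octamer occurred in 2 members (4.65%: Slc6a12 and Slc7a11), against 1.97% of all genes, and the E-box in 9 members (20.9%), against 8.09%. Members and other genes can have several windows, and these counts take a gene as holding a motif if any of its windows does. The 43 members had 64 windows, and the 27025 genes had 32851. By window the shares were 7.81% against 3.97% for the Atf4 core and 3.12% against 1.74% for the octamer. For the E-box they were 14.1% against 7.15%. The median GC content was 56.5% in member windows and 52.7% in all windows, and its part in these shares was not tested. A match is a description of letters and shows no binding.

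Windows of 4 members follow, 5′ to 3′ on the gene's strand, with matches in capitals. Slc38a5 is shown because no member spanned a wider range over the groups, and Slc7a11, Slc7a7 and Slc1a4 because they hold the Atf4 core and differ in which cells have most of their transcript. They lie at chrX:8271131-8271430 (plus strand, Slc38a5), chr3:50443564-50443863 (minus strand, Slc7a11), chr14:54417895-54418194 (minus strand, Slc7a7, 1 of its 5 windows) and chr11:20332664-20332963 (minus strand, Slc1a4).
Slc38a5: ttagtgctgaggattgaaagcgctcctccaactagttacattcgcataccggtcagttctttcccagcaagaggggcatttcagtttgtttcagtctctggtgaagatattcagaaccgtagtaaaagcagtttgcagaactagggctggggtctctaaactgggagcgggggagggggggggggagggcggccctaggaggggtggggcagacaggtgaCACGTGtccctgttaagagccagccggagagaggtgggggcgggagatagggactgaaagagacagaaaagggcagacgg
Slc7a11: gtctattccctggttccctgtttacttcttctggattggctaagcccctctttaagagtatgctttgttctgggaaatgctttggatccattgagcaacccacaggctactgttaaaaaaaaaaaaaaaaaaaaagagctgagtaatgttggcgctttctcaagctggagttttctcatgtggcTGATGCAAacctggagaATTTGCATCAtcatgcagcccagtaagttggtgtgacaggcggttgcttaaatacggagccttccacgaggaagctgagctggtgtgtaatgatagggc
Slc7a7: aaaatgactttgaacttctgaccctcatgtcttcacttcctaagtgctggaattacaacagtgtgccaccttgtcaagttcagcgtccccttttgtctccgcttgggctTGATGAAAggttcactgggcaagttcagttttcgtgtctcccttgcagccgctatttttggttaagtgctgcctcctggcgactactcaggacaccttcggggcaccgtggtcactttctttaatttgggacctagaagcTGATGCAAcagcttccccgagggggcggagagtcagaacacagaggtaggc
Slc1a4: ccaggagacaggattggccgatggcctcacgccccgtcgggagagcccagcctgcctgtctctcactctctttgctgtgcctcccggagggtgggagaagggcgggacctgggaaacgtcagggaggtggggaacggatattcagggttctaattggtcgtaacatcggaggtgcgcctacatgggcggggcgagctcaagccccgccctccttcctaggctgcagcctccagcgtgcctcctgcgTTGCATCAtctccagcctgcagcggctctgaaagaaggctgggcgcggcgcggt
In Slc38a5 the capitals are an E-box whose first base lies 30 before the start. In Slc7a11 the first capitals are an Atf4 core 66 before the start, and the second are an inverted octamer 49 before and an inverted Atf4 core 47 before, which overlap. In Slc7a7 they are Atf4 cores 141 and 1 before the start, and in Slc1a4 an inverted core 4 before it.

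Of the 60 members, 34 were called in at least 1 of 8 comparisons (56.7%, against 53% of all genes), and 17 of these with at least a 2-fold difference (28.3%, against 15.4% of all genes). The group means of 18 of the 60 members spanned at least 1, a larger share than the 17.7% of all genes for which this was so. Among these 18 the highest group was MEFs for 7, the partial line for 6, converted cells for 3, and EOS3F-29 and J1 cells for 1 each. No such split was made for all genes, so it does not show a pattern particular to the members. For 33 members no group averaged 5 or more, where array values lie near background and differences are compressed.

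Partial cells differed from MEFs in 17 members (28.3%, against 23.7% of all genes), 5 higher and 12 lower (13.7% and 10% of all genes). Full iPS cells differed from MEFs in 22 (36.7%, against 35% of all genes), 8 higher and 14 lower (17.1% and 17.8% of all genes). J1 cells differed from MEFs in 25 (41.7%, against 38% of all genes), 12 higher and 13 lower (20.6% and 17.5% of all genes), or 9 and 17 after centring on housekeeping genes. These 3 shares lie near their backgrounds. Partial cells differed from full iPS cells in 16 members (26.7%, against 18.6% of all genes), 10 higher and 6 lower (12.8% and 5.78% of all genes), with 3 lower without partial replicate 2 or 3. Converted cells differed from partial cells in 16 (26.7%, against 22.4% of all genes), 8 higher and 8 lower (9.36% and 13% of all genes), or 4 and 11 after housekeeping centring. The higher count was 4 without converted replicate 3 or partial replicate 1 and 5 without converted replicate 2. Housekeeping centring moved the median of all genes by -0.22 in this comparison and in that of converted with full iPS cells.

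Counted with at least a 2-fold difference, the members stood further from the background. Partial cells differed from full iPS cells in 8 members (13.3%, against 2.93% of all genes), converted from partial cells in 9 (15%, against 5.22%), and partial cells from MEFs in 10 (16.7%, against 6.22%). Full iPS cells differed from MEFs by that much in 8 (13.3%, against 7.81%) and J1 cells from MEFs in 13 (21.7%, against 11.3%). The members' median difference lay between -0.06 and 0.06 over the 8 comparisons and that of all genes between -0.04 and 0.06. The comparisons share arrays, so these shares are not independent of each other.

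**Figure D1:**
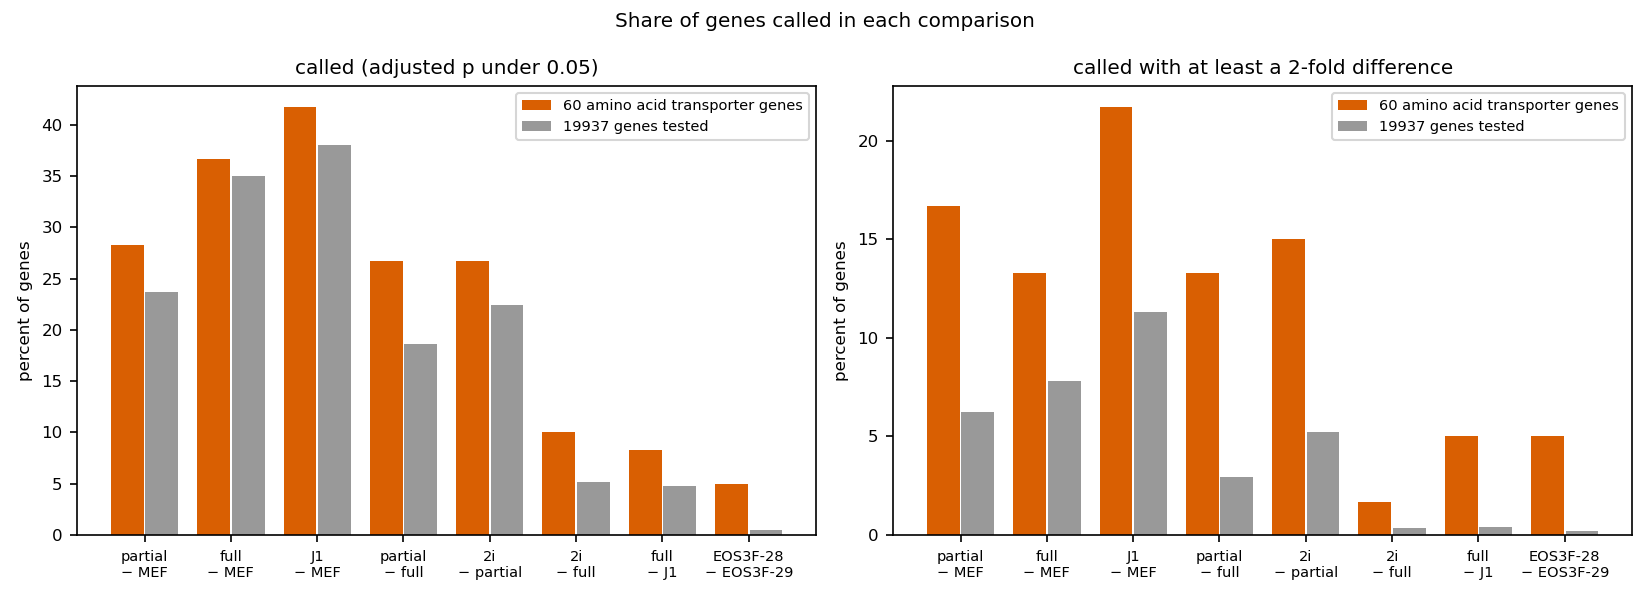
Percent of the 60 transporter genes (orange) and of all 19937 genes (grey) called in each of 8 comparisons, at an adjusted p under 0.05 (left) and with at least a 2-fold difference as well (right). The 2-fold shares of partial minus full iPS cells are 13.3% and 2.93%.

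High expression in the partial line came first in size. Slc38a5 encodes a sodium-coupled carrier of glutamine, asparagine, histidine, serine and glycine (system N), and lies on the X chromosome (probe set 10598507). Its level was 4.93, 4.77 and 5.18 in converted cells, 10.47, 10.48 and 10.79 in partial cells, 7.80, 7.28 and 7.86 in EOS3F-28, 5.77, 5.09 and 5.69 in EOS3F-29, 4.54, 5.16 and 4.56 in J1 cells and 3.80, 3.81 and 3.45 in MEFs. No other group reached the partial arrays, and the 2 full lines did not overlap. Converted, EOS3F-29 and J1 arrays overlapped in part, and every array of these groups stood above every MEF array. The partial line was 6.89 ± 0.21 above MEFs (adjusted p = 1.77e-13) and 4.0 ± 0.18 above full iPS cells (adjusted p = 6.59e-11), by 2.93 against EOS3F-28 and 5.06 against EOS3F-29 taken alone. Full iPS cells were 2.89 ± 0.18 above MEFs (adjusted p = 2.03e-09), by 3.96 for EOS3F-28 and 1.83 for EOS3F-29 alone, and J1 cells were 1.07 ± 0.21 above MEFs (adjusted p = 0.000454).

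Slc6a12 encodes a carrier of betaine and GABA that many cells use as an osmolyte importer (probe set 10541333, chromosome 6). Its level was 4.06, 4.10 and 4.28 in converted cells, 6.48, 7.75 and 7.31 in partial cells, 5.41, 6.38 and 5.81 in EOS3F-28, 4.31, 4.68 and 4.06 in EOS3F-29, 3.91, 4.20 and 3.89 in J1 cells and 4.18, 4.31 and 4.10 in MEFs. The partial arrays were all above the EOS3F-28 arrays, which were all above the other 4 groups, and those 4 overlapped near the array medians. The partial line exceeded MEFs by 2.98 ± 0.26 (adjusted p = 2.12e-07) and full iPS cells by 2.07 ± 0.22 (adjusted p = 3.18e-06). Full iPS cells were called above MEFs by 0.91 ± 0.22 (adjusted p = 0.00379), with 1.67 for EOS3F-28 alone and 0.15 for EOS3F-29 alone (adjusted p = 0.703).

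Slc43a3 belongs to the Slc43 family of facilitators, though its human protein is known to carry purine nucleobases (probe set 10473384, chromosome 2). It stood at 5.17, 4.82 and 5.20 in converted cells, 6.93, 7.80 and 7.24 in partial cells, 6.41, 6.86 and 6.56 in EOS3F-28, 5.68, 5.41 and 5.31 in EOS3F-29, 5.06, 5.04 and 4.74 in J1 cells and 6.60, 6.94 and 6.21 in MEFs. Here MEFs overlapped EOS3F-28 and the lowest partial array, and converted, EOS3F-29 and J1 cells were low. The partial line was 1.29 ± 0.18 above full iPS cells (adjusted p = 5.6e-05), and 0.74 ± 0.21 above MEFs (adjusted p = 0.0143), but the call was lost with MEF replicate 3 left out (adjusted p = 0.0908) and with partial replicate 2 left out (adjusted p = 0.104). J1 cells differed from MEFs by -1.64 ± 0.21 (adjusted p = 7.81e-06).

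Slc7a11 is the light chain that imports cystine in exchange for glutamate and so supplies glutathione synthesis (probe set 10498024, chromosome 3). Its level was 4.09, 3.12 and 3.67 in converted cells, 5.93, 6.58 and 6.06 in partial cells, 4.49, 3.98 and 4.58 in EOS3F-28, 4.62, 3.76 and 3.95 in EOS3F-29, 3.64, 3.26 and 3.32 in J1 cells and 4.86, 6.45 and 4.99 in MEFs. Partial cells and MEFs overlapped through MEF replicate 2, and both stood above all arrays of the other groups. The partial line was 1.96 ± 0.30 above full iPS cells (adjusted p = 0.000131). Against MEFs its difference was 0.76 ± 0.35 (adjusted p = 0.131), and 1.26 without MEF replicate 2 (adjusted p = 0.00342). Full iPS cells differed from MEFs by -1.20 ± 0.30 (adjusted p = 0.0041), or -0.69 without that array (adjusted p = 0.0457), and J1 cells by -2.02 ± 0.35 (adjusted p = 0.000147).

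Slc6a15 encodes a sodium-coupled importer of branched-chain amino acids and proline (probe set 10366163, chromosome 10). It stood at 5.33, 5.17 and 5.05 in converted cells, 6.01, 6.37 and 6.33 in partial cells, 5.19, 5.24 and 4.98 in EOS3F-28, 4.83, 4.71 and 4.87 in EOS3F-29, 5.33, 4.75 and 5.25 in J1 cells and 3.69, 4.93 and 3.57 in MEFs. The partial arrays were above all others, and 1 MEF array, replicate 2, reached the range of the iPS and J1 arrays. The partial line was 2.17 ± 0.25 above MEFs (adjusted p = 5.33e-06) and 1.27 ± 0.22 above full iPS cells (adjusted p = 0.000406). J1 cells were 1.05 ± 0.25 above MEFs (adjusted p = 0.00279).

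Epithelial markers were measured beside these transporters. The mean of 10 keratinocyte and simple epithelium markers was 4.69 to 5.09 over converted arrays, 6.09 to 6.84 over partial arrays, 5.67 to 6.04 over EOS3F-28 arrays, 4.98 to 5.62 over EOS3F-29 arrays, 4.78 to 5.14 over J1 arrays and 3.88 to 4.89 over MEF arrays. It was highest in the partial line, and the MEF arrays overlapped the converted and J1 arrays. Single markers differed in direction. Krt5 averaged 3.56 in J1 cells and 4.93 in MEFs (adjusted p = 0.12), and Krt14 4.24 and 5.13 (adjusted p = 0.195). Cdh1, Epcam and Krt8 were called higher in J1 cells than in MEFs. Krtdap, a gene of keratinocyte differentiation, averaged 3.07 in converted cells, 8.72 in partial cells, 6.82 in EOS3F-28 and 4.20 in EOS3F-29. In the partial line 5 of the 10 markers were higher and 2 lower than in full iPS cells, while Krt5, Krt18 and Epcam averaged under 5. Their part in the transporter values was not tested.

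**Figure D2:**
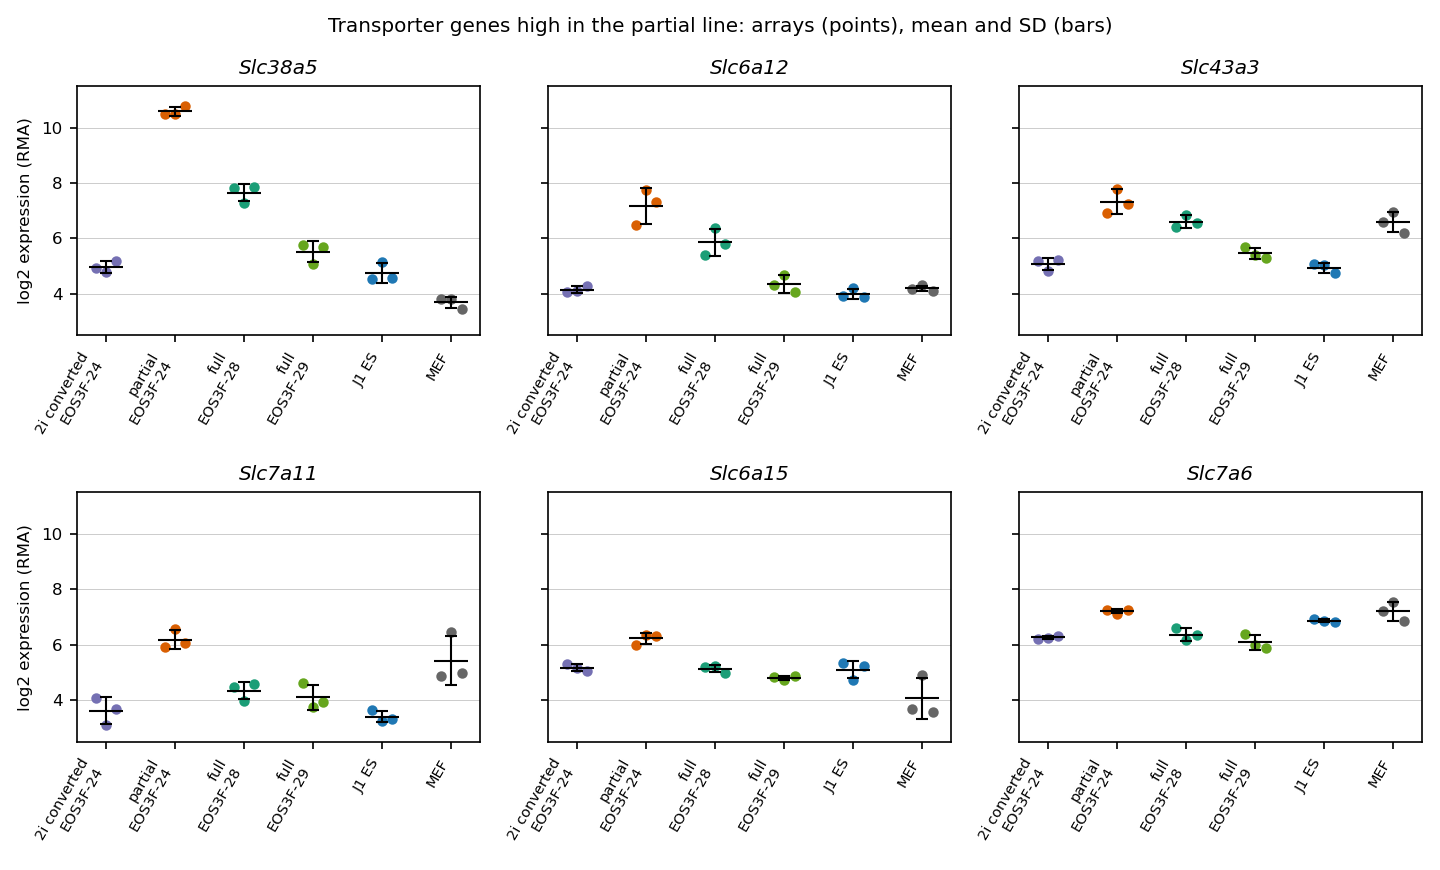
Log2 expression of 6 transporter genes with high levels in the partial line, for 3 arrays of each of 6 groups (points), with the group mean (wide bar) and SD (whiskers). Slc38a5 reads 10.47 to 10.79 in partial cells and 3.45 to 3.81 in MEFs, and Slc7a6, a light chain, averages 7.21 in both partial cells and MEFs.

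Low expression in the partial line was found for 3 members above all. Slc38a4 encodes a sodium-coupled system A carrier of small neutral amino acids that is imprinted in the mouse, with the paternal copy expressed (probe set 10431915). Its level was 7.72, 8.53 and 8.43 in converted cells, 3.98, 4.20 and 3.74 in partial cells, 7.50, 8.17 and 7.50 in EOS3F-28, 7.0, 8.32 and 7.23 in EOS3F-29, 8.0, 8.48 and 8.18 in J1 cells and 7.0, 8.11 and 6.0 in MEFs. The partial arrays lay near the array medians and the other 15 arrays at 6.0 or above, where the remaining groups overlapped. The partial line differed from MEFs by -3.06 ± 0.41 (adjusted p = 2.42e-05) and from full iPS cells by -3.64 ± 0.35 (adjusted p = 8.24e-07). Full iPS cells differed from MEFs by 0.58 ± 0.35 (adjusted p = 0.227), and by 1.12 without MEF replicate 2 (adjusted p = 0.0136). J1 cells were called above MEFs by 1.18 ± 0.41 (adjusted p = 0.0279), which was no longer called without MEF replicate 1 (adjusted p = 0.0667), MEF replicate 3 (0.67, adjusted p = 0.188), J1 replicate 2 (adjusted p = 0.0946) or J1 replicate 3 (adjusted p = 0.0606).

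Slc38a4 neighbours the other 2 system A genes, Slc38a2 and Slc38a1, on chromosome 15, with 0 protein-coding genes between them. Slc38a2, the carrier that many cells raise when amino acids run short, stood at 8.63, 7.88 and 8.59 in converted cells, 8.25, 8.12 and 8.11 in partial cells, 8.39 to 9.01 over the full iPS arrays with a median of 8.78, 8.65, 7.73 and 8.33 in J1 cells and 9.18, 9.57 and 8.91 in MEFs. MEFs were highest, with 1 array inside the range of full iPS cells, and the partial line was not apart from converted or J1 cells. The partial line differed from MEFs by -1.06 ± 0.22 (adjusted p = 0.00187) and J1 cells by -0.98 ± 0.22. The call of partial against full iPS cells, at -0.59 (adjusted p = 0.0426), was lost without any 1 of the 3 partial arrays (adjusted p of 0.0769, 0.141 and 0.129). It was also lost without any 1 of the 3 EOS3F-28 arrays (0.079, 0.0563 and 0.0587) or EOS3F-29 replicate 1 or 2 (0.0689 and 0.0654). Against EOS3F-29 alone the difference was -0.47 (adjusted p = 0.184), and against EOS3F-28 alone -0.70 (adjusted p = 0.0443). Slc38a1, read through the brighter of its 2 probe sets, was called in 0 comparisons, with group means between 6.51 and 6.88 and a difference of partial cells from MEFs of -0.32 ± 0.17 (adjusted p = 0.217). Its probe sets disagreed. The dimmer one gave -0.28 for partial cells, -0.53 for full iPS cells (adjusted p = 0.191) and -0.94 ± 0.32 for J1 cells (adjusted p = 0.0372 over all probe sets) against MEFs, where the brighter one gave -0.32, -0.30 and -0.37. For converted against full iPS cells it gave 0.73 (adjusted p = 0.195), and the brighter one 0.14. Over the 8 comparisons the differences of Slc38a4 ran from -3.64 to 4.25 and those of Slc38a2 from -1.06 to 0.51.

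Slc7a3 encodes a sodium-independent importer of arginine and lysine (probe set 10605986, X chromosome). Its level was 8.11, 7.67 and 7.94 in converted cells, 4.94, 5.08 and 5.02 in partial cells, 7.17, 6.90 and 7.23 in EOS3F-28, 7.27, 6.94 and 7.23 in EOS3F-29, 8.10, 7.18 and 7.59 in J1 cells and 6.06, 6.58 and 5.80 in MEFs. The partial arrays were below the MEF arrays, and the MEF arrays below all others. The partial line differed from MEFs by -1.13 ± 0.21 (adjusted p = 0.00055) and from full iPS cells by -2.11 ± 0.18 (adjusted p = 1.75e-07). Full iPS cells were 0.98 ± 0.18 above MEFs (adjusted p = 0.000317) and J1 cells 1.48 ± 0.21 (adjusted p = 2.13e-05). Of the other cationic amino acid carriers, Slc7a1, the widespread arginine importer, ran the other way against full iPS cells: it averaged 6.39 ± 0.13 in partial cells, 5.82 ± 0.11 in EOS3F-28 and 5.75 ± 0.25 in EOS3F-29, a difference of 0.61 ± 0.12 (adjusted p = 0.00161).

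Slc7a7 is a light chain that exports cationic amino acids in exchange for neutral ones and sodium (probe set 10419744, chromosome 14). It stood at 6.30, 5.94 and 5.98 in converted cells, 4.44, 4.88 and 4.58 in partial cells, 5.90, 6.32 and 6.13 in EOS3F-28, 6.01, 6.41 and 6.24 in EOS3F-29, 6.53, 5.82 and 6.28 in J1 cells and 4.63, 4.40 and 4.33 in MEFs. The 12 arrays of converted, full iPS and J1 cells were all above the 6 arrays of partial cells and MEFs, which overlapped each other. The partial line differed from full iPS cells by -1.54 ± 0.15 (adjusted p = 1.01e-06). Full iPS cells were 1.71 ± 0.15 above MEFs (adjusted p = 1.44e-07) and J1 cells 1.76 ± 0.17 above MEFs (adjusted p = 5.63e-07). Its close relative Slc7a6, with the same exchange activity, was highest in partial cells and MEFs, where Slc7a7 was lowest, and J1 cells came next. Slc7a6 stood at 6.21, 6.26 and 6.34 in converted cells, 7.26, 7.13 and 7.26 in partial cells, 5.88 to 6.61 over full iPS arrays with a median of 6.25, 6.92, 6.85 and 6.84 in J1 cells and 7.24, 7.54 and 6.86 in MEFs. Levels of different probe sets cannot be set against each other.

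**Figure D3:**
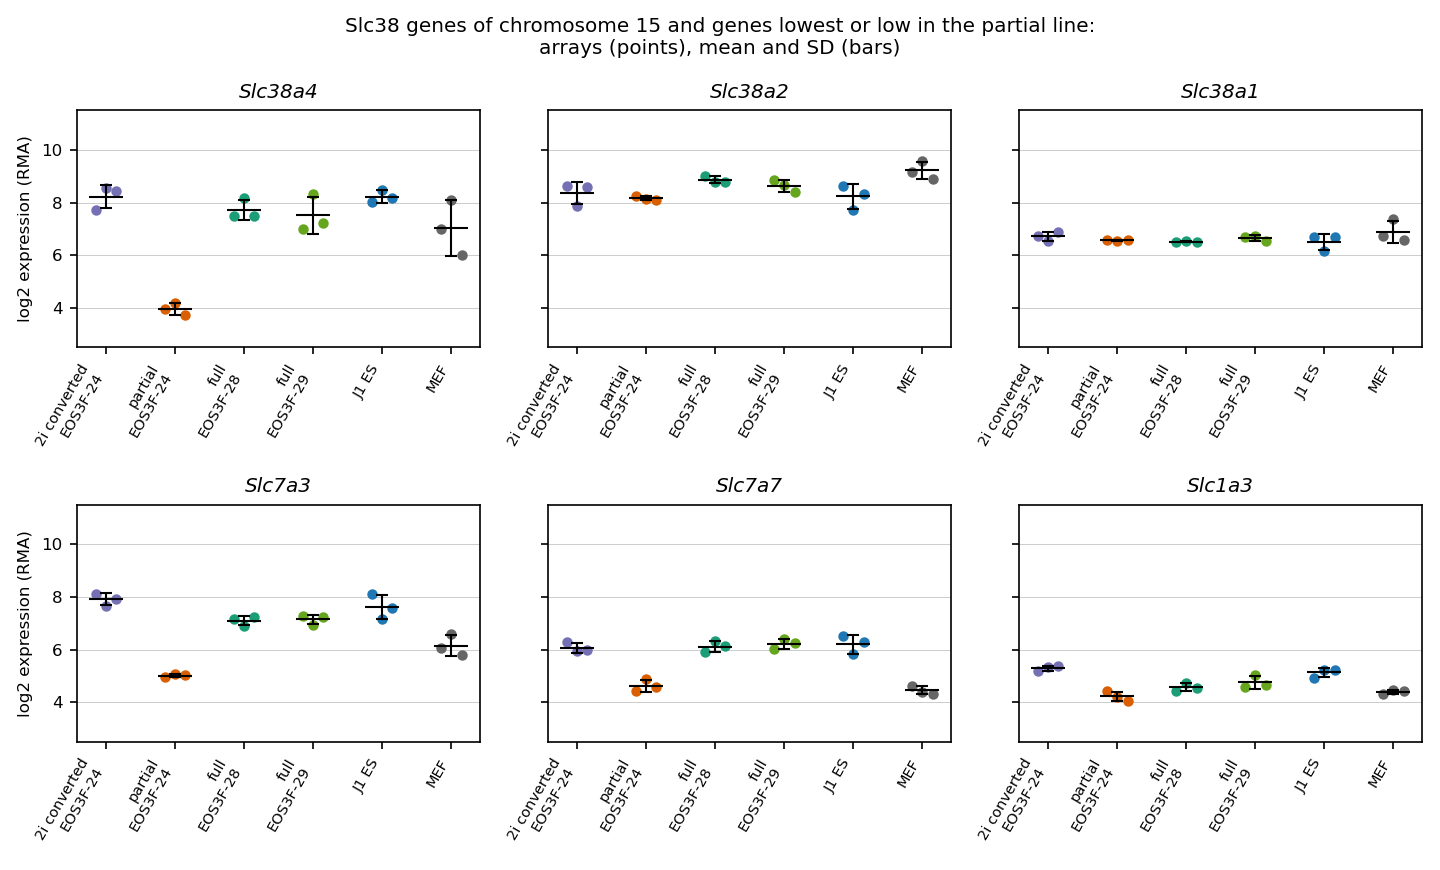
Log2 expression of the 3 neighbouring Slc38 genes of chromosome 15 and of Slc7a3, Slc7a7 and Slc1a3, for 3 arrays of each of 6 groups (points), with mean (wide bar) and SD (whiskers). Slc38a4 reads 3.74 to 4.20 in partial cells and 6.0 or more on every other array, while Slc38a2 reads 7.73 or more on every array.

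A further group of members was highest in MEFs. Slc1a4 exchanges alanine, serine and cysteine; it stood at 5.75, 5.99 and 6.22 in converted cells, 5.98, 6.06 and 6.06 in partial cells, 5.37 to 5.93 over full iPS arrays with a median of 5.61, 5.32, 5.34 and 5.65 in J1 cells and 7.06, 7.12 and 6.97 in MEFs. Every MEF array was above every other array. The differences from MEFs were -1.02 ± 0.15 for partial cells (adjusted p = 5.33e-05), -1.45 ± 0.13 for full iPS cells (adjusted p = 1.29e-07) and -1.61 ± 0.15 for J1 cells (adjusted p = 1.89e-07).

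Slc6a9, a sodium-coupled glycine importer, stood at 4.71, 4.56 and 4.77 in converted cells, 5.24, 5.50 and 5.37 in partial cells, 4.65 to 5.06 over full iPS arrays with a median of 4.74, 4.55, 4.58 and 4.68 in J1 cells and 6.28, 6.95 and 6.20 in MEFs. MEF arrays were above partial arrays, and partial arrays above the rest. The differences from MEFs were -1.10 ± 0.15 for partial cells (adjusted p = 3.81e-05), -1.68 ± 0.13 for full iPS cells (adjusted p = 3.86e-08) and -1.87 ± 0.15 for J1 cells (adjusted p = 6.11e-08). Slc6a17, known in neurons as a vesicular carrier of neutral amino acids, stood at 3.62 to 4.72 on the iPS and J1 arrays, against 5.62, 6.39 and 5.17 in MEFs, and its differences from MEFs were -1.56, -1.62 and -1.65 for partial, full iPS and J1 cells. Slc1a6, a glutamate importer known from cerebellar Purkinje cells, stood at 3.48 to 3.97 on the iPS and J1 arrays, against 5.39, 4.14 and 4.68 in MEFs; it differed from MEFs by -1.09 in partial and -1.01 in J1 cells. For both genes each MEF array was above all other arrays, and the mean of 9 neural markers lay between 3.97 and 4.24 on the 18 arrays. The markers did not go one way: in J1 cells Nes differed from MEFs by -2.09 (adjusted p = 2.52e-07) and Map2 by -0.98 (adjusted p = 0.00183), while Neurod1, Pax6 and Syt1 were called higher. Their part in the transporter values was not tested.

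Slc36a4, a proton-linked family member with high affinity for proline and tryptophan, stood at 4.94, 4.63 and 4.60 in converted cells, 5.69, 5.67 and 5.70 in partial cells, 4.61 to 5.54 over full iPS arrays with a median of 4.90, 4.65, 4.18 and 4.41 in J1 cells and 6.10, 6.26 and 6.04 in MEFs. MEFs were above the partial line and the partial line above the others. It differed from MEFs by -1.17 ± 0.16 in full iPS cells (adjusted p = 1.53e-05) and by -1.72 ± 0.18 in J1 cells (adjusted p = 1.12e-06). Fibroblast markers were also highest in MEFs: 10 of 10 were lower in partial cells than in MEFs, and 9 of 10 in full iPS and J1 cells. Slc6a9 and Slc36a4 were both higher on every partial array than on every full iPS and J1 array. The fibroblast marker means were 6.41 to 7.79 in partial cells, 6.21 to 7.24 in converted cells and 6.45 to 7.46 in EOS3F-28. They were 6.73 to 8.12 in EOS3F-29 and 6.40 to 7.21 in J1 cells. The part of fibroblast share in the MEF-high members' values was not tested.

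The widely used leucine and arginine carriers were called lower than in MEFs in partial and full iPS cells. The heavy chain Slc3a2 averaged 9.54 ± 0.30 in converted cells, 9.07 ± 0.10 in partial cells, 8.97 ± 0.09 in EOS3F-28, 9.01 ± 0.15 in EOS3F-29, 9.25 ± 0.10 in J1 cells and 9.55 ± 0.23 in MEFs. Its light chain partner for leucine, Slc7a5, averaged 7.86 ± 0.14 in converted cells, 7.72 ± 0.08 in partial cells, 7.58 ± 0.15 in EOS3F-28, 7.55 ± 0.32 in EOS3F-29, 8.07 ± 0.10 in J1 cells and 8.51 ± 0.41 in MEFs. The MEF mean was the highest for Slc7a5, and for Slc3a2 the converted mean lay within 1 SD of it. In partial cells the difference from MEFs was -0.49 ± 0.14 for Slc3a2 (adjusted p = 0.0167), lost when MEF replicate 2 (adjusted p = 0.0902) or partial replicate 1 (adjusted p = 0.063) was left out, and -0.79 ± 0.18 for Slc7a5 (adjusted p = 0.0029). In full iPS cells it was -0.56 ± 0.12 for Slc3a2 (adjusted p = 0.00139) and -0.94 ± 0.15 for Slc7a5 (adjusted p = 0.000101). In J1 cells neither was called.

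Slc7a1 differed from MEFs by -1.09 ± 0.12 in full iPS cells (adjusted p = 2.33e-06) and by -0.75 ± 0.14 in J1 cells (adjusted p = 0.000371). In partial cells it differed from them by -0.48 ± 0.14 (adjusted p = 0.0196), a call lost without MEF replicate 1 or 2 (adjusted p of 0.0532 and 0.107) or partial replicate 2 (adjusted p = 0.0963). Slc1a5, the main glutamine exchanger of many growing cells, differed from MEFs by 0.26 ± 0.24 in partial cells (adjusted p = 0.499), and by 0.60 without MEF replicate 2 (adjusted p = 0.0318). In J1 cells its difference was -0.62 (adjusted p = 0.0473), and without that array -0.27 (adjusted p = 0.313); the call was also lost without J1 replicate 1 or 2 (adjusted p of 0.149 and 0.113). Slc6a8 differed by -0.25 ± 0.13 in partial cells (adjusted p = 0.196). Of Slc1a5, Slc3a2, Slc7a1, Slc7a3, Slc7a5, Slc7a11, Slc38a1, Slc38a2, Slc38a4, Slc38a5 and Slc6a8, taken whether called or not, 5 were not called for full iPS cells against MEFs, with differences from -0.47 to 0.58, and 4 for J1 cells, from -0.44 to 0.01. For partial against full iPS cells 5 were not called, from -0.02 to 0.27, and for converted against partial cells 6, from -0.31 to 0.37. For converted against full iPS cells 8 were not called, from -0.61 to 0.61, for full iPS against J1 cells 10, from -0.60 to 0.82, and for EOS3F-28 against EOS3F-29 10, from -0.25 to 0.33.

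MEF replicate 2 touched many of these values. Of the 31 members with a mean of at least 4, it was the highest of the 3 MEF arrays for 24 (77.4%, against 49.4% of 11710 genes at that level). The MEF arrays correlated at 0.981 to 0.988 over genes. Without it, 14 of 17 calls of partial cells against MEFs were kept, 20 of 22 of full iPS cells and 23 of 25 of J1 cells. The calls lost were Slc3a2, Slc7a1 and Slc43a1 in partial cells, Slc43a3 and Slc6a6 in full iPS cells and Slc1a5 and Slc6a5 in J1 cells.

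**Figure D4:**
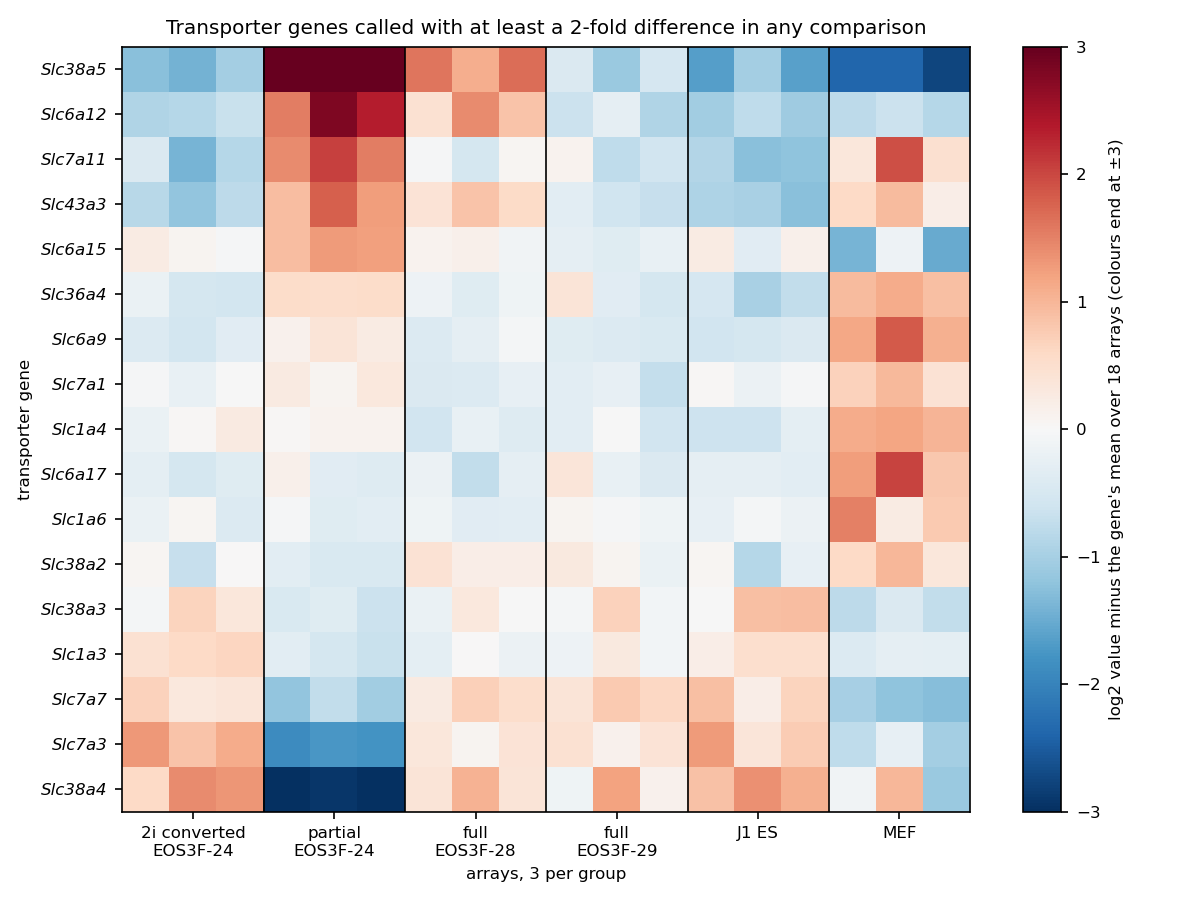
The 17 members called with at least a 2-fold difference in any comparison (rows) on the 18 arrays (columns, 3 per group), coloured by the log2 value minus the gene's mean over the 18 arrays. Rows run from high to low in the partial line, with Slc38a5 at the top and Slc38a4 at the bottom, and the converted arrays show the opposite colours for both.

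How 2i-converted EOS3F-24 cells differed from the partial line, with the inhibitors present only in the former, was the next question of the design. Slc38a4 rose by 4.25 ± 0.41 to an average of 8.23 ± 0.44 in converted cells, against 3.97 ± 0.23 in partial cells (adjusted p = 6.05e-07). Slc7a3 rose by 2.89 ± 0.21 (adjusted p = 1.73e-08) and Slc7a7 by 1.44 ± 0.17 (adjusted p = 9.26e-06). Slc1a3, a glutamate and aspartate importer, rose by 1.06 ± 0.13 (adjusted p = 1.23e-05), to 5.18, 5.33 and 5.36 in converted cells, against 4.41, 4.21 and 4.06 in partial cells.

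In the other direction Slc38a5 changed by -5.62 ± 0.21 (adjusted p = 3.62e-12), Slc6a12 by -3.03 ± 0.26 (adjusted p = 1.5e-07) and Slc7a11 by -2.56 ± 0.35 (adjusted p = 2.89e-05). Slc43a3 changed by -2.26 ± 0.21 (adjusted p = 3.95e-07) and Slc6a15 by -1.06 ± 0.25 (adjusted p = 0.00471). The 3 partial arrays are the same as those set against full iPS cells and MEFs, so these differences are not independent of the ones above. Slc3a2 was called at 0.47 ± 0.14, a call lost without partial replicate 1 or 2 (adjusted p of 0.0856 and 0.0522), converted replicate 2 or 3 (0.117 and 0.107), and after housekeeping centring (0.167).

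Whether converted cells reached the full state was asked against EOS3F-28 and EOS3F-29. Of the 60 members 6 were called (10%, against 5.16% of all genes), 3 higher and 3 lower (3.96% and 1.2% of all genes), or 2 and 11 after housekeeping centring. The higher count was 1 without converted replicate 3 and 5 without EOS3F-29 replicate 2. At least a 2-fold difference was called in 1 member (1.67%, against 0.366% of all genes). Slc7a3 was higher by 0.78 ± 0.18 (adjusted p = 0.015), a call lost without converted replicate 1 or 3 (adjusted p of 0.0648 and 0.0853) and against EOS3F-29 alone (0.76, adjusted p = 0.0637). Slc3a2 was higher by 0.55 ± 0.12 (adjusted p = 0.013), lost without converted replicate 2 or 3 (adjusted p of 0.124 and 0.116) and against EOS3F-29 alone (0.53, adjusted p = 0.0573), and Slc1a3 by 0.63 ± 0.11 (adjusted p = 0.00354).

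Slc38a5 differed by -1.62 ± 0.18 (adjusted p = 5.18e-05), Slc43a3 by -0.97 ± 0.18 (adjusted p = 0.00398) and Slc6a12 by -0.96 ± 0.22 (adjusted p = 0.017). The Slc6a12 call was lost without any 1 of the 3 converted arrays (adjusted p of 0.0516, 0.0966 and 0.0646). These 3 differences rested on EOS3F-28: against EOS3F-29 alone they were -0.56 (adjusted p = 0.2), -0.40 (adjusted p = 0.411) and -0.20 (adjusted p = 0.807), and against EOS3F-28 alone -2.69, -1.54 and -1.72. Slc38a4 differed by 0.61 ± 0.35 (adjusted p = 0.406).

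Full iPS cells differed from J1 ES cells in 5 members (8.33%, against 4.76% of all genes), 3 higher and 2 lower (1.29% and 3.47% of all genes), or 4 and 1 after housekeeping centring and 5 and 2 after cyclic loess. The lower count was 0 without J1 replicate 3, 1 without EOS3F-28 replicate 1 and 4 without J1 replicate 1 or EOS3F-29 replicate 2. The 3 higher, each by at least 2-fold (5%, against 0.401% of all genes), were Slc38a5 by 1.83 ± 0.18 (adjusted p = 1.27e-05), Slc6a12 by 1.11 ± 0.22 (adjusted p = 0.00756) and Slc43a3 by 1.09 ± 0.18 (adjusted p = 0.00171). With EOS3F-28 alone the differences were 2.89, 1.87 and 1.66, and with EOS3F-29 alone 0.76 (adjusted p = 0.0704), 0.35 (adjusted p = 0.638) and 0.52 (adjusted p = 0.269). Without J1 replicate 3 the call of Slc6a12 was lost as well (adjusted p = 0.0646).

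Lower in full iPS cells than in J1 cells were Slc1a3 by -0.48 ± 0.11 (adjusted p = 0.0222) and Slc7a6 by -0.64 ± 0.14 (adjusted p = 0.0114). The first was lost without EOS3F-28 replicate 1, J1 replicate 2 or J1 replicate 3 (adjusted p of 0.0522, 0.103 and 0.152). The second was lost without J1 replicate 3 (0.0584). Both calls also depended on the line. Slc1a3 differed by -0.57 with EOS3F-28 alone (adjusted p = 0.0181) and by -0.38 with EOS3F-29 alone (adjusted p = 0.174). Slc7a6 differed by -0.50 with EOS3F-28 alone (adjusted p = 0.0806) and by -0.78 with EOS3F-29 alone (adjusted p = 0.0153). Slc7a11 differed by 0.82 ± 0.30 (adjusted p = 0.143). The other system N carrier, Slc38a3, was 4.18, 4.92 and 4.58 in converted cells, 3.79, 3.89 and 3.61 in partial cells, 4.04 to 4.94 over full iPS arrays with a median of 4.22, 4.24, 5.16 and 5.18 in J1 cells and 3.47, 3.81 and 3.52 in MEFs. It was highest in J1 cells, 1.26 ± 0.25 above MEFs (adjusted p = 0.000584).

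The 2 full lines themselves differed in 3 members (5%, against 0.532% of all genes), each higher in EOS3F-28 and by at least 2-fold (0.206% of all genes), with 0 lower. Of all genes 0.301% were higher and 0.231% lower. The differences were 2.13 ± 0.21 for Slc38a5 (adjusted p = 2.51e-05), 1.52 ± 0.26 for Slc6a12 (adjusted p = 0.00997) and 1.14 ± 0.21 for Slc43a3 (adjusted p = 0.0154). In these 3 genes EOS3F-28 stood between EOS3F-29 and the partial line. The Slc6a12 call was lost without EOS3F-28 replicate 2 (adjusted p = 0.0626) or EOS3F-29 replicate 3 (0.0606), and that of Slc43a3 without EOS3F-28 replicate 2 or 3 (0.0961 and 0.065) or EOS3F-29 replicate 2 or 3 (0.0698 and 0.0712). Of the 10 epithelial markers 2 were called higher in EOS3F-28, Krtdap by 2.63 ± 0.18 (adjusted p = 1.62e-07) and Krt13 by 1.36 ± 0.24 (adjusted p = 0.0106). The markers did not go one way. Among those not called, Krt8 (-0.93, adjusted p = 0.117), Krt18, Epcam and Cdh1 were lower in EOS3F-28. Krt14 (1.83, adjusted p = 0.155), Krt19, Dsp and Krt5 were higher. The part of these markers in the transporter difference was not tested. Of the other marker lists, 0 of 10 fibroblast markers and 1 of 10 pluripotency markers were called between the lines.

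The remaining members were not called through the probe sets used. In no comparison were 26 of the 60 called, with differences from -0.46 to 0.67, and 22 of these averaged under 5 in every group. They include the monoamine carriers Slc6a3 and Slc6a4, the kidney and gut carriers Slc6a18, Slc6a19, Slc7a9 and Slc3a1, and the glutamate importer Slc1a2, known from astrocytes. At such levels an absent call does not show an absent difference. The 4 with a group mean of 5 or more were Slc7a2, Slc38a1, Slc38a9 and Slc6a8. Slc38a9, the lysosomal arginine sensor of mTORC1, ranged from 4.73 to 5.57 over the 18 arrays.

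The genes that respond to or use amino acids were counted in 5 lists. Of 19 measured genes of the amino acid response, 2 were higher and 10 lower in partial cells than in MEFs, 0 and 10 in full iPS cells and 0 and 8 in J1 cells. The shares called were 63.2%, 52.6% and 42.1%, against 23.7%, 35% and 38% of all genes. The list's median was -0.52, -0.48 and -0.54 in these comparisons, against 0.04, 0.03 and 0.06 for all genes. Atf5 differed by -1.50, -1.57 and -1.61 in partial, full iPS and J1 cells, and Trib3, an inhibitor of Atf4 signalling, by -1.42 in partial cells. The 2 higher in partial cells were Cth, which makes cysteine from cystathionine, by 1.60 ± 0.21 (adjusted p = 2.41e-05), and the secreted glycoprotein gene Stc2 by 0.97 ± 0.16 (adjusted p = 0.000153). Against full iPS cells 5 were higher and 0 lower in partial cells (26.3% called, against 18.6% of all genes), with Cth at 1.74. That was 4 and 2 after cyclic loess, 3 and 0 without partial replicate 2 or 3, and 3 and 0 against EOS3F-28 alone. After conversion 3 were higher and 4 lower (36.8%, against 22.4% of all genes), or 4 and 3 after cyclic loess and 2 and 7 after housekeeping centring, with Asns, the asparagine synthetase, at 1.20 ± 0.24 (adjusted p = 0.00103) and Cth at -1.46 ± 0.21 (adjusted p = 6.31e-05).

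Of 19 genes of serine, glycine, threonine and one-carbon metabolism, 4 were higher and 4 lower in partial than in full iPS cells (42.1% called, against 18.6% of all genes), and 11 higher and 4 lower in converted than in partial cells (78.9%, against 22.4%), or 7 and 5 after housekeeping centring. In the comparison of converted with partial cells the list's median was 0.50 and that of all genes 0.00. Gldc, the decarboxylase of the glycine cleavage system, stood at 6.62, 7.06 and 6.99 in converted cells, 3.71, 3.95 and 3.82 in partial cells, 6.46 to 7.14 over full iPS arrays, 7.42, 7.37 and 7.58 in J1 cells and 3.39, 3.63 and 3.45 in MEFs. Amt, another enzyme of that system, was likewise higher after conversion, by 2.96 ± 0.16 (adjusted p = 5.83e-10) against 3.06 ± 0.18 for Gldc (adjusted p = 1.12e-09). Partial cells lay with MEFs for both, apart from every array of the converted, full iPS and J1 cells, as they did for Slc7a7.

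Of 29 genes of amino acid sensing by mTORC1, 3 were higher and 5 lower in partial cells than in MEFs (27.6% called, against 23.7% of all genes), or 1 and 7 after cyclic loess and 1 and 6 after housekeeping centring. It was 4 and 1 without MEF replicate 3, 2 and 2 without partial replicate 2 and 2 and 3 without partial replicate 3. In converted against partial cells 6 were higher and 1 lower (24.1%, against 22.4%), or 2 and 7 after housekeeping centring and 3 and 1 without converted replicate 2 or partial replicate 1. Both shares lie near their backgrounds. Rragb, a Rag GTPase that recruits mTORC1 to lysosomes, differed by 1.41 in partial cells, 2.24 in full iPS cells and 2.09 in J1 cells from MEFs and by 1.43 in converted from partial cells. Of 23 genes of glutamine and other amino acid metabolism, 8 were higher and 4 lower in partial cells than in MEFs (52.2%, against 23.7% of all genes) and 9 higher and 2 lower after conversion (47.8%, against 22.4%). After housekeeping centring these were 6 and 5, and 7 and 3. Glul, the glutamine synthetase, was higher than in MEFs by 1.85 ± 0.26 in partial cells (adjusted p = 4.54e-05), 1.66 in full iPS cells and 2.03 in J1 cells. Of 21 amino acid carriers of other families, 2 were higher and 0 lower in partial cells than in MEFs (9.52%, against 23.7% of all genes), and 1 and 0 without any 1 of MEF replicates 2 and 3 and the 3 partial arrays, or after housekeeping centring. One was Slc25a13, the mitochondrial aspartate and glutamate exchanger, at 1.36. After conversion 5 were higher and 0 lower (23.8%, against 22.4%), or 4 and 2 after housekeeping centring, with its relative Slc25a12 at 1.04.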

How the data were processed

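The authors deposited a log2 value for each probe set, computed with RMA per the submitters' processing notes. The RMA version, the build and the annotation were not given in the sources used here. Per the labels' protocols, the RNeasy Mini Kit served for extraction, and a sense target assay of the whole transcript for biotin labelling. RMA sets the arrays to a like distribution and compresses differences near background. The number of arrays limits the precision.

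Of 34760 probe sets the platform annotation gave 1 symbol for 21640, several for 1321 and none for 11799. With limma 3.58.1 (R 4.3.3), 1 mean for each group was fitted over all 18 arrays and 19937 genes, followed by empirical Bayes moderation and Benjamini-Hochberg adjustment over all genes. Full iPS cells are the mean of both lines. The model was tested on simulated data with independent noise and known changes in partial cells against MEFs. That simulation held no deviations shared by replicate number and so does not cover them. The members, gene lists, comparisons and alternatives were chosen with earlier results of these data known. Differences are printed for members called with at least a 2-fold change, for 11 members whether called or not, some as ranges (Slc1a5, Slc3a2, Slc7a1, Slc7a3, Slc7a5, Slc7a11, Slc38a1, Slc38a2, Slc38a4, Slc38a5 and Slc6a8), and for the leading called genes of each list. Slc43a3, Slc6a12, Slc6a15, Slc1a3 and Slc7a6 are also named below 2-fold, and Atf5, Cth, Rragb and Glul in further comparisons. Values are also printed for single markers (Krtdap, Krt13, Krt8, Krt14, Krt5, Nes and Map2) and housekeeping genes (Hprt, Sdha, Eif4a2 and Actb). All of these were chosen after their values were seen.

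Equal replicate numbers were checked by correlating deviations from the group means. They exceeded 0.1 for every pair between converted and partial cells (0.383, 0.14 and 0.122) and between EOS3F-28 and EOS3F-29 (0.542, 0.639 and 0.149), where they were taken to pair arrays, from the values and not the labels. They also did for partial cells with EOS3F-29 and with J1 cells, and for converted with J1 cells, which are not among the 8 comparisons. Alternatives were cyclic loess, housekeeping centring, all probe sets tested, the mean of a gene's probe sets, a filter on dim genes, a trended robust fit, only the arrays compared, a replicate block, each full line alone and each array left out. Promoter windows came from RefSeq (GRCm38.p6).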

Additional observations from a re-analysis of the deposited data

Results flagged for a closer look

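The difference from MEFs was not the same in the 2 fully reprogrammed lines for 3 transporter genes, by the test of EOS3F-28 minus EOS3F-29 (limma, Benjamini-Hochberg over all genes). EOS3F-28 minus EOS3F-29 was 2.13 for Slc38a5 (adjusted p = 2.51e-05), 1.52 for Slc6a12 (adjusted p = 0.00997) and 1.14 for Slc43a3 (adjusted p = 0.0154). All 3 EOS3F-28 arrays were above all 3 EOS3F-29 arrays in each gene. For Slc43a3 the difference from MEFs was 0.0229 in EOS3F-28 (adjusted p = 0.956), and -1.12 in EOS3F-29 (adjusted p = 0.000517).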

How the results depend on the processing

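Of 110 calls of members over the 8 comparisons, 74 were kept under every alternative tried and 36 were lost under at least 1, and of the 55 with at least a 2-fold difference 48 were kept and 7 lost. One direction turned: when EOS3F-28 alone stood for full iPS cells, Slc43a3 differed from MEFs by 0.0229 (adjusted p = 0.956), against -0.55 with both lines. Counts of members called moved over 1.5 times in 3 comparisons. Converted against full iPS cells gave 6 calls, 1 when EOS3F-29 alone stood for full iPS cells, 13 after housekeeping centring and 3 to 8 with each array left out. Full iPS against J1 cells gave 5, 1 with EOS3F-29 alone and 2 to 8 with each array left out. EOS3F-28 against EOS3F-29 gave 3, and 1 to 3 with each array left out. With replicate number as a block (the replicate block), that comparison of full iPS and J1 cells gave 11 calls. Equal numbers there went together for numbers 1 and 2 (0.613 and 0.483) but not for number 3 (-0.114). The same held for converted with full iPS cells (0.629, 0.506 and -0.0999), where the replicate block gave 8 calls. Where numbers were taken to pair arrays, the replicate block gave 18 calls for converted against partial cells and 3 for EOS3F-28 against EOS3F-29, and it ended none of the 110 calls. In the other 5 comparisons every total of members called stayed within 1.5 times, but the lower count of partial against full iPS cells and the higher count of converted against partial cells did not, as given with those counts. Of 660 recomputed counts of the 5 pathway lists, 100 moved over 1.5 times. Housekeeping centring moved the median of all genes by -0.22 in both comparisons of converted cells with iPS cells. It subtracts the mean of 11 housekeeping genes, so a change in those genes moves every value. Of them Hprt (1.30, adjusted p = 2.61e-05) and Sdha (0.49, adjusted p = 0.0103) were called higher in converted than in full iPS cells. The rest were not called, with Eif4a2 at 0.72 and Actb at -0.22. Whether these genes or the scaling of the arrays changed was not tested, nor was the cause of the other shifts. Of members, 33 averaged under 5 in every group, where signal near background limits what can be called.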
